A study of Mus musculus with 15 samples.

Results

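The genes described here encode 9 regulators of fat cell formation, namely Pparg, Cebpa, Cebpb, Cebpd, Ebf1, Zfp423, Gata2, Tcf7l2 and Tle3. They were taken by name from a table of 18804 genes, and all 9 were among the 14293 genes with enough counts to be tested. Expression was measured by RNA sequencing in white adipocytes that had been differentiated in culture from mesenchymal stem cells of C57BL/6J mice, which per the study's methods are wild-type cells from the ear. There were 3 groups of 5 libraries. The day 0 group stayed at 37°C throughout, while the cells of the day 1 and day 12 groups went into an incubator at 31°C on day 15 and day 4 of differentiation. All groups were harvested on day 16 and so share the same age in culture. All groups also share the same induction of adipogenesis with methylisobutylxanthine, dexamethasone, insulin and a PPARγ agonist, which the labels and one section of the study's methods call troglitazone and another section calls rosiglitazone. The day 1 and day 12 groups differ both in the length of the exposure and in the age of the cells at the move, and these cannot be told apart. No source says if libraries with the same label are from different mice or only different dishes, so the SDs and p-values given here cover the spread between libraries, which may be technical.

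Adipogenesis is driven by a cascade of transcription factors. C/EBPβ and C/EBPδ appear early after hormonal induction and turn on Pparg and Cebpa, whose products then maintain each other's expression and the expression of the genes for lipid storage in the mature cell. Ebf1 and Zfp423 act in committed preadipocytes upstream of Pparg, Gata2 and the Wnt effector Tcf7l2 belong to pathways known to restrain differentiation, and Tle3 is a coregulator that acts with PPARγ on genes of lipid storage.

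The libraries held between 64648178 and 133270973 counts, and the members had between 1190 and 26187 counts in a library. The cells expressed adipocyte markers at a summed level of 5910 to 6540 CPM (counts scaled to a common library size with TMM factors) at day 0, 7040 to 7580 at day 1 and 5750 to 6370 at day 12, with all 10 markers of the list detected. Pparg is itself on that list. At day 12, 6 of the 10 markers had a log2 fold change above 0 and 4 below 0. Adipoq (1095 and 464 CPM at days 0 and 12) and Cfd (1219 and 581.5 CPM) were lower, and Fabp4 (828 and 1617 CPM) was higher. Stromal progenitor markers, which the undifferentiated cells express, summed to 14100 to 14800, 11800 to 12500 and 10700 to 11100 CPM at days 0, 1 and 12. Most of that sum was collagen and vimentin RNA, with Col3a1 at 6727 CPM at day 0 and 3900 CPM at day 12. Of the 10 stromal genes tested, 4 had a log2 fold change above 0 at day 12 and 6 below 0. The receptor genes Pdgfra (562 and 712 CPM) and Pdgfrb (131 and 184 CPM) were higher at day 12. Ly6a (591 and 221 CPM) and Dlk1 (38.27 and 20.45 CPM) were lower. Proliferation markers summed to 108 to 124 CPM at day 0, 126 to 139 at day 1 and 234 to 272 at day 12, and chondrocyte and muscle markers to 3590 to 4320, 3840 to 4000 and 1080 to 1170. Most of the chondrocyte and muscle sum was Comp, at 3717, 3708 and 919 CPM. Of the 4 genes of that list tested, 3 were lower at day 12 and 1 was higher, namely Col2a1 (149 and 182 CPM at days 0 and 12). Macrophage markers stayed at or under 48.6 CPM and endothelial markers at or under 1.79 CPM in each library. Mesothelial and epithelial markers summed to 10.1 to 11.7 CPM at day 0, 13 to 15.4 at day 1 and 30 to 44.3 at day 12, where Msln alone was at 29.3 CPM after 0.63 CPM at day 0. These levels moved with the groups and their part in the results below was not tested. In bulk RNA, fewer cells of a type and less of an RNA in each cell cannot be told apart.

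Promoters of the members are shown first, since in the textbook cascade C/EBP factors bind the Pparg promoter and cAMP signals act on that of Cebpb. RefSeq promoter windows on GRCm38.p6 were found for 8 of the 9 members, and Cebpd is named only. The 250 bases upstream of a start are printed here in lower case, read 5′ to 3′ on the strand of the gene, for 4 members on whose values the results turn. Capitals mark the C/EBP site TTGCNNAA in Pparg, the TATA box TATAAA in Cebpa, the core TGACG of a cAMP response element in Cebpb and Tle3, and the E-box CACGTG in Tle3, each searched on both strands. The Pparg window lies before the most downstream of its 3 starts, at chr6:115421816-115422065 on the plus strand. The others lie at chr7:35119043-35119292, chr2:167688665-167688914 and chr9:61372116-61372365, also on the plus strand.
Pparg: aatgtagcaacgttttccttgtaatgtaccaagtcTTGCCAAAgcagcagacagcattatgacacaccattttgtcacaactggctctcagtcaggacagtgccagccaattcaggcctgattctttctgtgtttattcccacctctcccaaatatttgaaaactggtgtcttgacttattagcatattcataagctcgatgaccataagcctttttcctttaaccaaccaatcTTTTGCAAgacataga
Cebpa: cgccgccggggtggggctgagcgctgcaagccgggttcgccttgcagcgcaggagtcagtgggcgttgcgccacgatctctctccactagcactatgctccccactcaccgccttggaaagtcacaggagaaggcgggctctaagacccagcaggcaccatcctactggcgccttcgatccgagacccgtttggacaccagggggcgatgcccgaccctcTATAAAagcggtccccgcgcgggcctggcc
Cebpb: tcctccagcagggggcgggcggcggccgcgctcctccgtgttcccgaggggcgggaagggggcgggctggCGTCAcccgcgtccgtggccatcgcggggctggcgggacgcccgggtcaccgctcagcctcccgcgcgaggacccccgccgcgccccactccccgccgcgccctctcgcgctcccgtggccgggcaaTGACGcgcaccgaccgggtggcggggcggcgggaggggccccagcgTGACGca
Tle3: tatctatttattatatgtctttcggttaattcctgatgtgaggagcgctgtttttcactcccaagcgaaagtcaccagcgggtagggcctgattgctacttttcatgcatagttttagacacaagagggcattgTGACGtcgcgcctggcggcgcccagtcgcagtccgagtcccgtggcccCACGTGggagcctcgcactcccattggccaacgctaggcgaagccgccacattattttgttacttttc
The Pparg window held 2 C/EBP sites, whose first bases lie 215 and 16 bases before the start. The Cebpa window held a TATA box 30 bases before the start, at the usual place of that element. Cebpb held the TGACG core 3 times, at 180, 53 and 7 bases before the start, and Tle3 held it once at 116 bases, with an E-box at 68 bases. Of all 32851 promoter windows, 9.56% held a C/EBP site, 17.8% a TGACG core, 12.4% a TATA box and 6.02% an E-box. Among the windows not printed, Zfp423 held a C/EBP site at 131 bases before its first start. Tcf7l2 held a TGACG core at 53 bases before its first start, and a GATA site at 187 bases and a TATA box at 242 bases before its second start. The other 2 windows of Pparg held no C/EBP site, and the second of them held a TATA box at 29 bases. A GATA site stood in 9.99% of all windows. The windows of Ebf1 and Gata2 held none of the 7 motifs searched, which also included AGATAA for GATA factors, ATCAAAG for TCF/LEF factors and, for EBF factors, TCCC and GGGA with 2 bases between them. A match is a description of these letters and not a bound site, and the counts, which are summed over a gene, do not say which start was used.

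The first question was which of these regulators responded to the cool temperature, and the answer was a set of moderate shifts. After 1 day at 31°C, Cebpd fell by 32.7% and Tle3 fell by 29.9%, Pparg fell by 19.2%, Zfp423 rose by 36% and Cebpa rose by 18%. After 12 days, Pparg fell by 33.7%, Tle3 fell by 28.8% and Cebpb fell by 27.2%, while Cebpa and Zfp423 did not pass the test, though both passed as higher (0.12 and 0.24 on the log2 scale) with total counts as the scale. The words rose and fell are used here for differences with an adjusted p under 0.05 in edgeR's quasi-likelihood test, adjusted over all genes tested, and a gene is named as called where the fold change was also over 1.5.

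By that rule 0 of the 9 members were called at day 1 against day 0, where 21.1% of all genes tested were called. At day 12 against day 0, 1 member (Pparg, lower) was called against a background of 29.2%, and at day 12 against day 1 0 members were called against 19.1%. Without the limit on the fold change, 6 members passed at day 1, where 71.5% of all genes passed. Of these, 2 were higher and 4 lower, beside 35.3% and 36.2% of all genes. At day 12, 7 members passed against 76.6% of all genes, 1 higher and 6 lower beside 39.2% and 37.4%. Between day 12 and day 1, 6 passed against 67.2%, 2 higher and 4 lower beside 34.3% and 32.8%. These shares give no sign that the members responded more often than other genes. The 5 values of each group did not overlap for 5 members at day 1, 4 members at day 12 and 5 between day 12 and day 1, where the shares for all genes were 57.4%, 64.6% and 52.5%. These shares, and the differences given below, depend on how libraries are scaled. With total counts alone the median log2 fold change of all genes stood at 0.21 at day 12 against day 0 and 0.18 at day 12 against day 1, and with the reference genes Hprt, Tbp and Ppia it stood at 0.07 and 0.16, so each member moved up by about that much. With TMM the median of the members was -0.22 at day 1 and -0.19 at day 12, beside -0.01 and 0.01 for all genes.

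**Figure D1:**
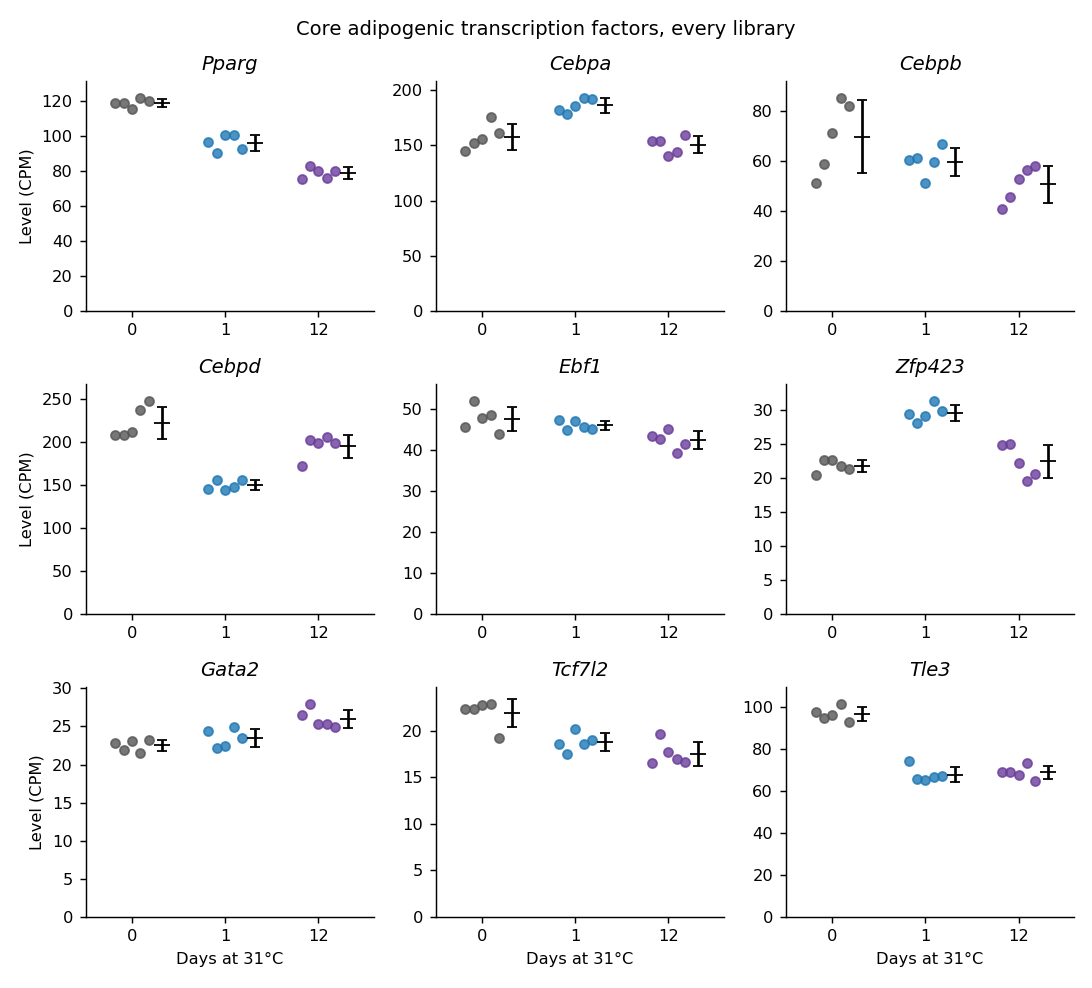
Expression of the 9 members in CPM (vertical axes, each starting at 0) in each of the 15 libraries, by days at 31°C. Each point is 1 library, and the bars show the mean and SD of 5 libraries, so Pparg is seen to step from 118.7 to 95.9 and 78.6 CPM.

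Pparg (GRCm38 chr6:115360951-115490399, 10 merged exons on the plus strand) encodes the nuclear receptor that is required for fat cell formation. At day 0 its level was 118.4, 118.7, 115.3, 121.4 and 119.5 CPM in replicates 1 to 5. At day 1 it was 96.4, 90.2, 100.2, 100.5 and 92.1 CPM, and at day 12 it was 75.0, 82.8, 79.9, 75.5 and 80.0 CPM. The 3 groups did not overlap, and every library at day 12 was under every library at day 1. The log2 fold change was -0.31 ± 0.03 (SE) at day 1 with an adjusted p of 1.253e-08, and -0.59 ± 0.03 at day 12 with an adjusted p of 5.265e-14. The difference between day 12 and day 1 was -0.29 ± 0.03 with an adjusted p of 6.18e-08. Pparg was thus lower at each interval, though the difference between day 12 and day 1 was -0.11 with total counts and -0.13 with reference genes as the scale, with adjusted p of 0.00427 and 0.003. Relative to the median of all genes, that difference was -0.30, -0.30 and -0.29 with TMM, total counts and reference genes. The call at day 12 stands at the edge of the fold limit, with a 95% interval of -0.66 to -0.52 that spans the limit, and it was lost without replicate 1 or replicate 4 of day 12 (-0.58 each) and with total counts (-0.40) or reference genes (-0.54) as the scale.

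Cebpa (chr7:35119293-35121928, 1 exon on the plus strand) encodes C/EBPα, which with PPARγ keeps the mature adipocyte's program on. Its level was 144.7, 152.1, 155.5, 176.2 and 161.5 CPM at day 0. It was 182.2, 178.1, 185.9, 193.1 and 192.4 CPM at day 1, and 154.2, 153.8, 140.8, 144.5 and 159.3 CPM at day 12. Each library at day 1 was above all of those at day 0 and day 12, while the latter groups overlapped. Cebpa rose by 0.24 ± 0.04 on the log2 scale at day 1 with an adjusted p of 2.062e-05, and was lower at day 12 than at day 1 by a log2 change of -0.31 ± 0.04 with an adjusted p of 7.134e-07. At day 12 against day 0 the difference of -0.07 ± 0.04 did not pass, with an adjusted p of 0.1383 and a 95% interval of -0.16 to 0.02, and its sign turned to 0.12 when total counts set the scale. Pparg and Cebpa, which sustain each other's transcription in the textbook cascade, therefore moved in opposite directions at day 1.

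Cebpd (chr16:15887286-15891031, 1 exon on the plus strand) encodes C/EBPδ, one of the early factors that respond to glucocorticoid. It was measured at 207.8, 208.7, 211.4, 237.2 and 247.8 CPM at day 0. At day 1 the libraries stood at 145.1, 156.4, 143.8, 147.7 and 155.7 CPM, and at day 12 at 171.8, 202.0, 198.9, 205.5 and 198.8 CPM. The day 1 libraries lay under all others, and those of day 12 lay between the groups with no overlap on either side. The log2 fold change at day 1 was -0.57 ± 0.05 with an adjusted p of 2.064e-10, close to the fold limit. It passed that limit without replicate 1, 2 or 3 of day 0 (-0.60 to -0.59), without replicate 2 or 5 of day 1 (-0.59 each), or with reference genes as the scale (-0.67). From day 1 to day 12 Cebpd rose by 0.38 ± 0.05 with an adjusted p of 2.336e-07. At day 12 against day 0 it was lower by a log2 change of -0.19 ± 0.05 with an adjusted p of 0.001239, which was 0.01 when total counts set the scale.

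In the GENCODE annotation, 562 bases of the Cebpd exon, 15% of it, are shared with exons of Spidr on the opposite strand, a gene of DNA repair that the count table lists as 2310008H04Rik. Spidr took 91.6 ± 2.16, 29.6 ± 0.55 and 71.3 ± 3.22 CPM (mean ± SD, n = 5) at days 0, 1 and 12. Its log2 fold change was -1.63 ± 0.03 at day 1 with an adjusted p of 3.621e-22, so its level moved in the same directions as that of Cebpd. The mean of Cebpd differed from that at day 0 by -72.8 CPM at day 1 and -27.2 CPM at day 12, and that of Spidr by -62.0 and -20.3 CPM. Whether the counting used strand is not stated in the sources used here, so reads of the shared bases cannot be told apart and the part of Spidr in the values of Cebpd was not tested.

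Cebpb (chr2:167688915-167690418, 1 exon on the plus strand) encodes C/EBPβ, the other early factor, which is induced through cAMP signalling. Its libraries were the most scattered of the members at day 0, at 51.2, 58.9, 71.4, 85.4 and 82.2 CPM, a coefficient of variation of 21%. At day 1 they stood at 60.4, 61.3, 51.3, 59.5 and 66.9 CPM, and at day 12 at 40.8, 45.5, 52.7, 56.6 and 58.2 CPM. In the day 0 and day 12 groups these values rose nearly in order of replicate number. The groups overlapped in each comparison. At day 1 the log2 fold change of -0.22 ± 0.11 did not pass, with an adjusted p of 0.07429 and a 95% interval of -0.44 to 0.01. It was -0.14 without replicate 4 of day 0, and passed with an adjusted p of 0.00605 with reference genes (-0.31), 0.0386 when only genes averaging 10 CPM or more were kept (-0.26) and 0.0238 with the library number series as a factor (-0.26). At day 12 Cebpb fell by 0.46 ± 0.11 with an adjusted p of 0.0005576. On the opposite strand, Tmem189 shares 312 bases with Cebpb, 20.7% of its exon, and stood at 49.9, 52.3 and 38.9 CPM at days 0, 1 and 12, so the same limit of strand applies and its part was not tested.

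Ebf1 and Zfp423 are the members known from the commitment of preadipocytes, and Zfp423 also from the maintenance of the white adipocyte state. Zfp423 (chr8:87661810-87959595, minus strand) was at 20.4, 22.6, 22.5, 21.8 and 21.2 CPM at day 0. It reached 29.4, 28.1, 29.0, 31.3 and 29.8 CPM at day 1 and was at 24.9, 25.0, 22.2, 19.6 and 20.6 CPM at day 12. The day 1 libraries were above all others, and those of day 0 and day 12 overlapped. Zfp423 rose by 0.44 ± 0.05 on the log2 scale at day 1 with an adjusted p of 1.149e-07, the highest log2 fold change among the members at that day. It was lower at day 12 than at day 1 by a log2 change of -0.39 ± 0.06 with an adjusted p of 9.482e-07, and at day 12 against day 0 the difference was 0.05 ± 0.06 with a 95% interval of -0.07 to 0.16. With total counts as the scale that difference was 0.24 with an adjusted p of 0.000376, which is 0.04 relative to the median of all genes, as it is with TMM. Ebf1 (chr11:44617317-45008091, plus strand) had its lowest and highest libraries at 44.0 and 52.0 CPM at day 0, at 44.9 and 47.4 CPM at day 1, and at 39.4 and 45.3 CPM at day 12, and its groups overlapped throughout. Its log2 fold change was -0.05 ± 0.04 at day 1 with an adjusted p of 0.305, and -0.16 ± 0.04 at day 12 with an adjusted p of 0.0008986, which became 0.03 when total counts set the scale.

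The members tied to restraint of adipogenesis split. Gata2 (chr6:88193891-88207032, plus strand) encodes a zinc finger factor of preadipocytes that represses Pparg. It was at 22.8, 21.9, 23.0, 21.5 and 23.3 CPM at day 0, at 24.3, 22.2, 22.5, 24.9 and 23.5 CPM at day 1 and at 26.5, 27.9, 25.3, 25.3 and 24.9 CPM at day 12. All day 12 libraries were above those of the other groups, if narrowly against day 1. Gata2 rose by 0.21 ± 0.04 on the log2 scale at day 12 with an adjusted p of 8.451e-05, after a difference of 0.06 ± 0.04 at day 1 that did not pass, with an adjusted p of 0.2053, and turned to -0.04 with reference genes as the scale. With TMM it was the one member higher than day 0 with an adjusted p under 0.05 at day 12. With total counts Gata2 was higher by 0.40, and Zfp423 (0.24) and Cebpa (0.12) passed as higher too. Tcf7l2 (chr19:55741820-55933654, plus strand), the TCF/LEF factor through which Wnt signals reach adipocyte genes, spanned 19.2 to 22.8 CPM at day 0, 17.4 to 20.2 CPM at day 1 and 16.6 to 19.6 CPM at day 12. Its log2 fold change was -0.22 ± 0.05 at day 1 with an adjusted p of 0.000735 and -0.32 ± 0.05 at day 12 with an adjusted p of 7.795e-06. The groups overlapped in both comparisons, in each case through replicate 5 of day 0 at 19.2 CPM, and without that library the values were -0.26 and -0.37.

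Tle3 (chr9:61372366-61418497, plus strand) encodes the Groucho-family coregulator that works with PPARγ in white adipocytes. Its level was 97.8, 94.9, 96.2, 101.4 and 92.9 CPM at day 0. At day 1 it was 74.1, 65.7, 65.1, 66.6 and 67.2 CPM, and at day 12 it was 69.2, 69.1, 67.7, 73.3 and 65.0 CPM. Every library at 31°C was under every library at 37°C, and the cooled groups overlapped. Tle3 fell by 0.51 ± 0.04 on the log2 scale at day 1 with an adjusted p of 7.341e-12 and by 0.49 ± 0.04 at day 12 with an adjusted p of 1.107e-11. The difference between the cooled groups was 0.02 ± 0.04 with an adjusted p of 0.5971 and a 95% interval of -0.05 to 0.10. That difference passed with total counts (0.20, adjusted p of 3.68e-05) and with reference genes (0.18, adjusted p of 0.00067), and the fall at day 12 was 0.30 with total counts. Relative to the median of all genes the difference between the cooled groups was 0.01 on each of the 3 scales.

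**Figure D2:**
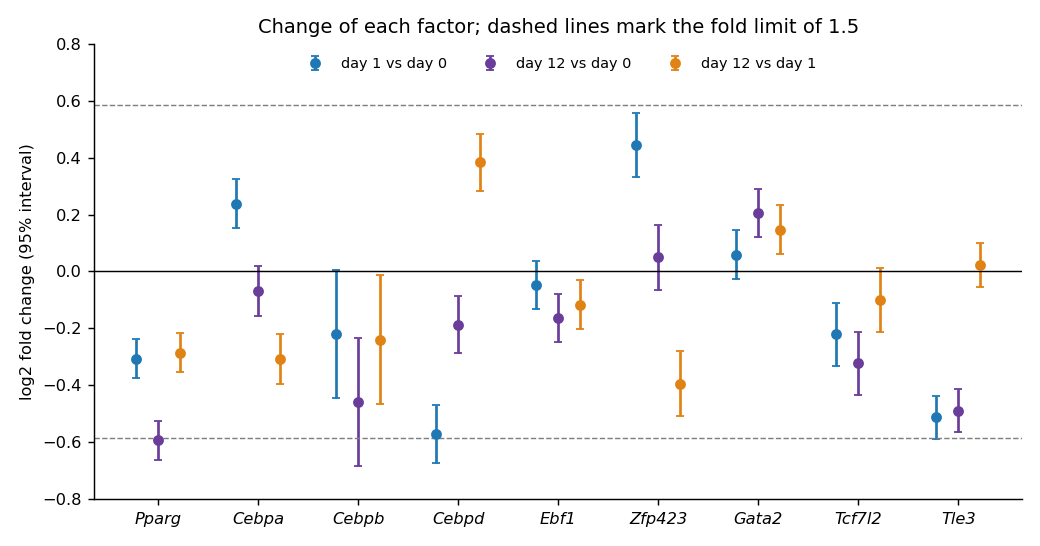
Log2 fold change of each member (vertical axis) at day 1 against day 0, day 12 against day 0 and day 12 against day 1, with bars for the 95% interval of edgeR's fit to 15 libraries and dashed lines at a fold of 1.5. Pparg at day 12 (-0.59) and Cebpd at day 1 (-0.57) lie at the lower line, and Zfp423 (0.44 at day 1) and Cebpa (0.24 at day 1) lie above 0 at day 1, while at day 12 their bars, on the TMM scale, cross 0.

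Levels of different genes were compared per length, as CPM per kilobase of merged exons (RPKM). At day 0 the order was Cebpa at 59.9 ± 4.5 RPKM (SD, n = 5), Cebpd at 59.4 ± 4.97, Pparg at 49.9 ± 0.94, Cebpb at 46.4 ± 9.75, Tle3 at 17.1 ± 0.57, Ebf1 at 7.96 ± 0.51, Gata2 at 6.11 ± 0.20, Tcf7l2 at 4.94 ± 0.34 and Zfp423 at 4.29 ± 0.18. Cebpa and Cebpd did not differ beyond their spread, nor did Pparg and Cebpb. The cascade factors of the C/EBP and PPARγ families thus stood above the coregulator Tle3, which in turn stood above the other members. At day 1 Cebpa was alone at the top at 70.7 ± 2.45 RPKM, and Pparg at 40.3 ± 1.95, Cebpd at 39.98 ± 1.58 and Cebpb at 39.8 ± 3.74 were within their spread of each other. At day 12 Cebpa at 57.1 ± 2.89 and Cebpd at 52.2 ± 3.59, which overlapped in their spread, were followed by Cebpb at 33.8 ± 4.94 and Pparg at 33.1 ± 1.40, again within their spread. At the lower end, Zfp423 passed Tcf7l2 at day 1 (5.84 ± 0.23 against 4.23 ± 0.22 RPKM), and at day 12 Ebf1 and Gata2 were level at 7.10 ± 0.37 and 7.06 ± 0.33. The place of Cebpd depends on the gene model, since its exon has 3746 bases in GENCODE and 2260 in RefSeq. With the RefSeq length it stood at 98.5 ± 8.24, 66.3 ± 2.62 and 86.5 ± 5.96 RPKM at days 0, 1 and 12, above Cebpa at day 0 and day 12.

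Ratios of pairs of members within a library do not depend on how libraries are scaled, and 5 pairs were compared over the 3 comparisons with an exact permutation test, two-sided, adjusted over the 15 tests. The smallest p that 252 arrangements allow is 0.007937, which becomes 0.0119 after adjustment. The balance of the early C/EBP factors to Cebpa shifted at day 1. Cebpd to Cebpa moved by -0.81 on the log2 scale at day 1 (adjusted p = 0.0119, exact permutation), from 0.49 ± 0.08 to -0.32 ± 0.08 (SD, n = 5 each), and came back by 0.69 at day 12 against day 1 (adjusted p = 0.0119, exact permutation). At day 12 against day 0 its difference was -0.12 (adjusted p = 0.1701, exact permutation). The limit given for reads shared with Spidr holds for this pair too. Cebpb to Cebpa moved by -0.44 at day 1 (adjusted p = 0.0119, exact permutation), and at day 12 the difference of -0.38 did not pass (adjusted p = 0.06944, exact permutation).

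The ratio of Gata2 to Pparg separated all 3 groups. Per length it was 0.123 ± 0.006 (SD, n = 5), 0.158 ± 0.008 and 0.214 ± 0.011 at days 0, 1 and 12, with log2 differences of 0.37 at day 1, 0.80 at day 12 and 0.43 between them, each at the smallest adjusted p of 0.0119 in the exact permutation test. So Gata2 RNA was higher relative to Pparg RNA at each interval, while Pparg still exceeded Gata2 per length in every library. At day 1 Pparg fell (log2 fold change -0.31), and the difference of Gata2 (0.06) did not pass. Zfp423 to Ebf1 was 0.540 ± 0.023 at day 0, 0.758 ± 0.034 at day 1 and 0.624 ± 0.055 at day 12. Its log2 differences of 0.49 at day 1, 0.21 at day 12 and -0.28 between them were also each at that smallest adjusted p. Tle3 to Tcf7l2 moved by -0.29 at day 1 (adjusted p = 0.0119, exact permutation) and by -0.17 at day 12 (adjusted p = 0.04329, exact permutation), and the latter was lost in 8 of the 15 fits that left out a library. These 8 were the fits without any given library of day 0 and those without replicate 2, 3 or 5 of day 12. Leaving out a library of day 1 cannot change the difference between day 12 and day 0. The difference of 0.12 between day 12 and day 1 did not pass (adjusted p = 0.1648, exact permutation).

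**Figure D3:**
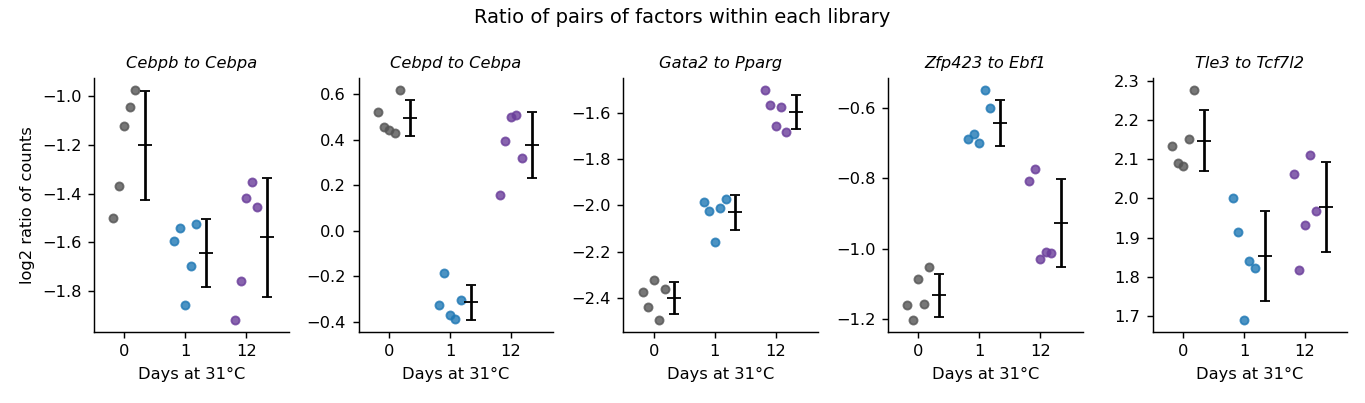
Log2 ratio of the counts of 2 members within each library (vertical axis) for 5 pairs, by days at 31°C, with points for libraries and bars for the mean and SD of 5 libraries. Gata2 to Pparg climbs from group to group with no overlap, and Cebpd to Cebpa dips at day 1 and returns.

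The other genes of the pathway were read from lists chosen by known role. Of 27 partners and other pro-adipogenic factors, all tested, 0 were called higher and 4 lower at day 1 (Nr1h3, Creb1, Bcl6 and Cebpg), where 7.71% of all genes were called higher and 13.4% lower. At day 12, 1 was called higher (Egr2) and 6 lower (Rxrg, Nr1h3, Klf15, Bcl6, Xbp1 and Cebpg), where 13% of all genes were called higher and 16.2% lower. Their median log2 fold change was -0.25 at day 1 and -0.22 at day 12. Klf15, a Krüppel-like factor that promotes Pparg expression, went from 31.5 ± 1.02 CPM (SD, n = 5) to 22.3 ± 1.43 and 15.4 ± 1.19 CPM, which is -0.50 and -1.04 on the log2 scale. Creb1, the cAMP response factor that acts on Cebpb in the cascade, went from 34.4 ± 1.00 to 19.3 ± 1.39 CPM at day 1, a log2 fold change of -0.83, and stood at 27.6 ± 1.17 CPM at day 12. Cebpg, a C/EBP family member that pairs with the others, had log2 fold changes of -0.76 and -0.60, and the repressor Bcl6 had -0.61 and -0.83. Between day 12 and day 1, 3 were called higher (Egr2, Ebf2 and Nfib) and 1 lower (Zbtb16), beside 10.6% and 8.53% of all genes. Of the members of this list that heterodimerize with PPARγ, Rxra stood at 243, 316 and 217 CPM at days 0, 1 and 12 and was not called against day 0.

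Among factors known to oppose adipogenesis, 20 of the 22 listed were tested. At day 1, 0 were called higher and 4 lower (Ddit3, Hes1, Irf4 and Runx1t1), beside 7.71% and 13.4% of all genes, and at day 12, beside 13% and 16.2%, 1 was called higher (Twist2) and 5 lower (Ddit3, Sox9, Hes1, Foxo1 and Irf4). The median log2 fold change was -0.28 at day 1 and -0.23 at day 12. Ddit3, the stress-induced C/EBP partner CHOP, went from 37.9 ± 2.44 to 21.7 ± 0.94 and 16.4 ± 0.94 CPM, and Sox9, a repressor of Cebpb and Cebpd, from 84.2 ± 1.81 to 64.3 ± 3.43 and 48.8 ± 1.62 CPM. Runx1t1 fell by 1.13 on the log2 scale at day 1 and by 0.46 at day 12. Between day 12 and day 1, 3 were called higher (Zfp521, Nr2f2 and Runx1t1) and 1 lower (Irf4), beside 10.6% and 8.53% of all genes.

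Of 24 coregulators, 1 was called higher (Tle4) and 4 lower (Ppargc1b, Tle2, Carm1 and Cited2) at day 1, where the shares of all genes were 7.71% and 13.4%. At day 12, 2 were called higher (Tle1 and Tle4) and 1 lower (Ppargc1a), where they were 13% and 16.2%, with medians of -0.10 and 0.02. The other Groucho-family genes differed from each other in direction. Tle4 was at 1.10 ± 0.28, 1.99 ± 0.35 and 2.86 ± 0.22 CPM at days 0, 1 and 12, with log2 fold changes of 0.87 and 1.39, Tle1 had 0.53 and 0.68, and Tle2 had -0.78 and -0.35. Carm1, a methyltransferase that coactivates PPARγ, went from 79.7 ± 3.22 to 47.9 ± 1.54 CPM at day 1 and stood at 58.8 ± 2.82 CPM at day 12. Ppargc1a, the coactivator of mitochondrial genes, had log2 fold changes of -0.47 at day 1 and -1.497 at day 12. Between day 12 and day 1, 0 coregulators were called higher and 1 lower (Ppargc1a), beside 10.6% and 8.53% of all genes.

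Around Tcf7l2, 16 of 18 listed TCF/LEF and β-catenin pathway factors were tested. At day 1, 2 were called higher (Tcf7 and Axin1) and 1 lower (Lef1), beside 7.71% and 13.4% of all genes. At day 12, beside 13% and 16.2%, 4 were called higher (Tcf7, Nkd1, Nkd2 and Lgr5) and 1 lower (Lef1), with medians of 0.05 and 0.39. The TCF/LEF genes went different ways. Lef1 went from 9.86 ± 0.99 to 5.05 ± 0.37 and 2.98 ± 0.14 CPM, which is -0.97 and -1.72 on the log2 scale, and Tcf7 from 3.37 ± 0.37 to 5.40 ± 0.49 and 5.58 ± 0.50 CPM. Axin1, a scaffold of the complex that degrades β-catenin, rose by 0.65 at day 1 and by 0.58 at day 12 on the log2 scale, and Nkd2, a feedback inhibitor of Wnt signalling, rose by 1.19 at day 12. Between day 12 and day 1, 3 were called higher (Nkd1, Nkd2 and Lgr5) and 2 lower (Lef1 and Notum). Of all genes, 10.6% were called higher and 8.53% lower.

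The adipocyte genes that PPARγ and C/EBPα control went both ways. Of 30 listed, 29 were tested. At day 1, 6 were called higher (Fabp4, Scd1, Dgat1, Retn, Agpat2 and Mgll) and 4 lower (Cidec, Pck1, Lep and Adrb3), beside 7.71% and 13.4% of all genes. At day 12, 9 were called higher and 8 lower, beside 13% and 16.2%, with medians of 0.21 and 0.11. Agpat2, an acyltransferase of triglyceride synthesis, went from 21.5 ± 1.53 to 39.6 ± 2.04 and 66.3 ± 2.89 CPM, while Cidec, a lipid droplet protein, went from 176.8 ± 6.41 to 28.9 ± 2.30 and 59.0 ± 3.69 CPM. Scd1, the desaturase that makes monounsaturated fatty acids, rose by 1.23 and 1.501 on the log2 scale, and the β3-adrenergic receptor gene Adrb3 fell by 2.44 and 6.10. Between day 12 and day 1, 3 were called higher (Cidec, Retn and Agpat2) and 5 lower (Adipoq, Slc2a4, Dgat2, Cfd and Adrb3). The shares of all genes in that comparison were 10.6% and 8.53%.

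**Figure D4:**
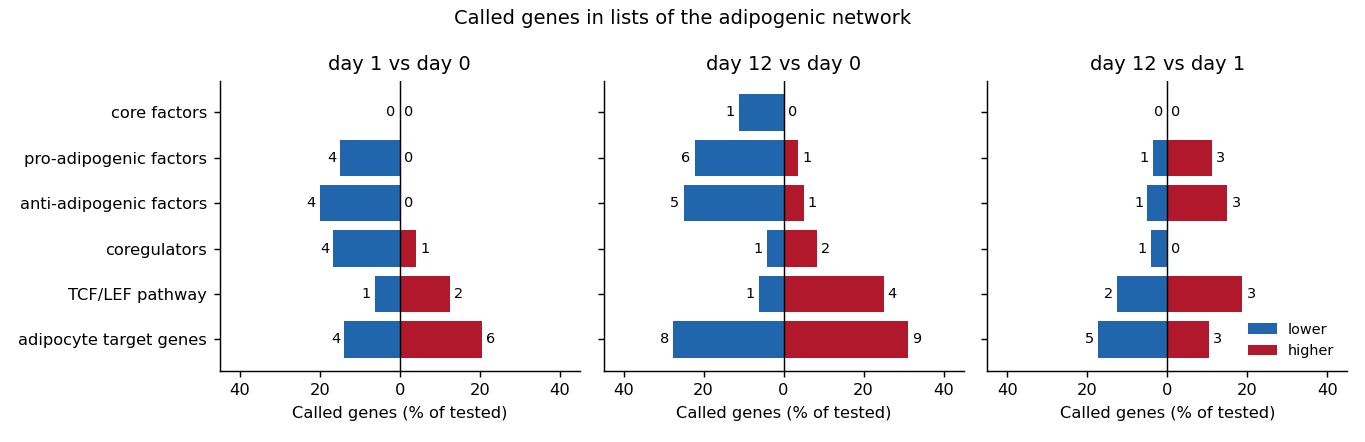
Called genes as a percent of the tested genes (horizontal axis) in the 9 members, named core factors, and the 5 pathway lists, with bars to the left for lower and to the right for higher genes and the number of genes at each bar, in a panel for each comparison. The members have 0, 1 and 0 calls, and the adipocyte target genes at day 12 have 9 higher and 8 lower.

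The genes whose pattern over the 15 libraries was nearest to that of Pparg, the only member called against day 0, were Fam20b and Cp. They were picked from 12123 genes by the root mean square difference of log2 CPM centred on day 0, which was 0.057 for Fam20b and 0.063 for Cp. Fam20b, a kinase of proteoglycan assembly, had log2 fold changes of -0.30 at day 1 and -0.65 at day 12. Cp, which encodes ceruloplasmin, had -0.26 and -0.61.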

How the data were processed

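RNA was measured in 15 libraries, grouped by their labels. The authors aligned reads to mm10 with TopHat2 2.0.13 and Bowtie2 2.2.1 and deposited raw counts of reads per gene from HTSeq. Annotation and strand of the counting are not given in the sources used here. Regularized log2 values and tables of the authors' own comparisons were also deposited and were not used.

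Genes were filtered with filterByExpr (minimum count 10), scaled by TMM and tested across all 14293 genes and 15 libraries in R 4.3.3, by quasi-likelihood in edgeR 4.0.16. Adjustment was by Benjamini-Hochberg, and calls needed both an adjusted p under 0.05 and over 1.5-fold. SEs were obtained from each log2 fold change and its F statistic. Exon lengths came from GENCODE for GRCm38, the build of mm10. Ratios used a pseudocount of 0.5 counts. The members and lists were chosen with earlier results of these data known. Genes outside the members were named from the lists, up to 4 of each those called with the largest change at a mean level of 1 CPM or more, and where a count was 5 or fewer. Rxra, Rxrg, Xbp1, Fabp4, Dgat1, Mgll, Pdgfra, Col2a1 and the genes on the opposite strand fall outside that rule and were chosen after their values were seen. Genes like Pparg were the 2 nearest with a mean of at least 1 CPM.

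The fit was tested on simulated data with log2 changes of 1 and 2. With a log2 change of 1 at day 1, 100 of 100 changed genes were called among 14213 tested. At day 12, 100 of 100 were called too, with 2 false calls. These changes were larger than those of the members, so the test does not show how well changes of their size are found. Over 15 pairs, libraries numbered alike had correlations from -0.0255 to 0.0436. In 8 of these pairs the first library still correlated best with its own number, where chance gives 3. No pair of libraries of a group agreed within sampling noise, with a chi-square per degree of freedom of 5.697 or more. Alternatives were DESeq2 1.42.0, other scalings, filters and fits, and leaving out each library.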

Additional observations from a re-analysis of the deposited data

Results flagged for a closer look

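Departures within the 9 members are given here as values. A single library stood apart from the other 4 of its group in 3 of 27 sets of values tested, and chance gives about 1 in 20. Cebpd stood at 171.8 CPM in replicate 1 of day 12, Tcf7l2 at 19.2 CPM in replicate 5 of day 0, and Tle3 at 74.1 CPM in replicate 1 of day 1, which was the highest of its group. Without these libraries the log2 fold change of Cebpd at day 12 was -0.14, that of Tcf7l2 was -0.26 at day 1, and that of Tle3 at day 1 was -0.55.

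The effects of 1 and 12 days differed by the test of day 12 against day 1 for 6 members. The log2 difference was -0.29 for Pparg, -0.31 for Cebpa, -0.12 for Ebf1 and -0.39 for Zfp423, and it was 0.38 for Cebpd and 0.15 for Gata2. That of Ebf1 turned to 0.06 with total counts and 0.04 with reference genes as the scale.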

How the results depend on the processing

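Against TMM, the median of all genes shifted by 0.02, 0.19 and 0.17 with total counts, at day 1, at day 12 and between them, and by -0.10, 0.06 and 0.15 with the reference genes. Signs that turned were, with total counts, Cebpa (0.124), Cebpd (0.00501) and Ebf1 (0.0286) at day 12 against day 0 and Ebf1 (0.0557) and Tcf7l2 (0.0705) at day 12 against day 1. With reference genes they were Gata2 (-0.0385) at day 1 and Ebf1 (0.0374) and Tcf7l2 (0.0541) at day 12 against day 1. The other 289 of 297 values of single members under these alternatives kept their sign, as did all 405 with a library left out.

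At day 1, 2 members were called with reference genes (Cebpd and Tle3) and 1 (Cebpd, -0.62 or -0.59) with a mean of at least 10 CPM or the library number series as a factor, against 0. At day 12, 0 were called with total counts, reference genes or a test against a fold of 1.5, against 1. The adjusted p alone passed 6, 7 and 6. With a library left out, the counts ranged from 0 to 1 at day 1, from 0 to 1 at day 12 and from 0 to 0 between them. The cause of these shifts was not tested. DESeq2, no filter and fits on the compared groups alone gave 0, 1 and 0.

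Same-numbered libraries had correlations under 0.1 in all 15 pairs and were not treated as paired. In 8 of these pairs the first library correlated best with its own number among 5 candidates, where chance gives 3. The replicate block changed no call, with 0, 1 and 0 members called, though Cebpb then passed the adjusted p at day 1 (-0.20, 0.0248) and between day 12 and day 1 (-0.25, 0.00651). The ratios blocked by number had too few sign flips to pass. Within the larger series of library numbers, the 11 ratio calls all kept their direction and lost significance, with fewer libraries. Without replicate 1 of day 0, Cebpb to Cebpa passed at day 12 (-0.45).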
